A study of Mus musculus with 8 samples.

Results

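The genes described here are the chains of collagens and laminins, 55 of the 32285 genes in the count matrices. The members follow from their symbols alone, as every gene named Col, a number, a and a number, or Lam, a letter a, b or c and a number. This gives 44 collagen and 11 laminin genes, each of which had at least 1 count in the annotated nuclei. The collagens comprise 11 fibrillar chains, 6 chains of the basement membrane network (type IV), 8 of the beaded filament type VI and related types, 9 fibril-associated chains, 4 transmembrane chains, 3 short chains, 2 multiplexins and 1 anchoring fibril chain. The laminins comprise 5 alpha, 3 beta and 3 gamma chains.

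A collagen is a triple helix of alpha chains, and a laminin is a cross-shaped trimer of 1 alpha, 1 beta and 1 gamma chain. Laminins and type IV collagen form separate networks that are joined into the basement membrane, which in the brain lies mainly around blood vessels and under the meninges, while fibrillar collagens such as types I and III belong to the fibroblasts of vessels and meninges. Neurons and glia also transcribe some chains, among them the transmembrane collagen Col25a1 and the laminin alpha 2 chain Lama2, whose loss causes congenital muscular dystrophy with changes of the white matter.

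RNA was counted in single nuclei from the striatum of 32 inbred mice, 12 weeks old, with 4 mice from each of 8 strains. Of these, WSB/EiJ, CAST/EiJ and PWK/PhJ are wild-derived, NOD/ShiLtJ and NZO/HlLtJ are models of diabetes and of obesity, and A/J, 129S1/SvImJ and C57BL/6NJ are common laboratory strains. The names are those of the deposited table of nuclei, where the design text has C57BL/6J and NZO/H1LtJ. Nuclei of 1 mouse of every strain were pooled in each of 4 batches, with both sexes in each batch, and the strain of a nucleus was read from its genotype, so that a mouse is a strain within a batch and its sex is not used here.

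The 4 batches gave 11826 to 15626 annotated nuclei, 55672 in all, with a median of 3232 to 4931 counts per nucleus. The authors' 18 clusters were used unchanged. Batch 3 was the shallowest, and its endothelial nuclei stood apart: their 5 endothelial markers summed to 2582 CPM (counts scaled to a library total of 1e+06) against 5304 to 6422 CPM in the other batches, and 6 projection neuron markers to 3314 CPM against 1426 to 1682 CPM. Of 54141 barcode sequences, 1517 were found in 2 or more batches, and nuclei were therefore identified by batch and barcode. The 5 fibroblast markers summed to 3357 CPM in the cluster named Fibroblast and to at most 232 CPM in each of the other 17. That cluster also held oligodendrocyte (3621 CPM), astrocyte (2064 CPM, of which Slc1a3 1399 CPM) and mural (1690.0 CPM, of which Vtn 1312 CPM) markers. The numbers of nuclei behind each cluster are given with the levels, since in summed nuclei fewer cells that express a gene and less RNA per cell cannot be told apart.

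RefSeq windows of 300 bases, from 250 before to 50 after a transcript start, were at hand for 40 of the 55 genes, 44 windows in all. An accessible region of the authors' peak list covered part of 25 of these windows (56.8%), against 53.1% of all windows in the table. The hexamer GGGCGG or its complement CCGCCC, the GC box, was found on either strand in 59.1% of the 44 windows and in 35.7% of all windows of the same length. The windows of the chain genes also held more G and C, with a median of 59.5% against 52.7%. The part of base content in the GC box share was not tested. A TATA box was found in 11.4% against 13.6% of windows, and a CCAAT box in 31.8% against 37.4%. The windows below belong to the genes on which the following results turn most. Each has an accessible region, and the GC boxes are in capitals. They are read 5′ to 3′ on the gene's own strand, in the build GRCm38.p6. Lama2 (chr10:27616893-27617192, minus strand) holds 1 GC box, Col25a1 (chr3:130180595-130180894, plus strand) holds 2, Col4a1 (chr8:11312777-11313076, minus strand) 1 and Col4a2 (chr8:11312555-11312854, plus strand) 3.
Lama2: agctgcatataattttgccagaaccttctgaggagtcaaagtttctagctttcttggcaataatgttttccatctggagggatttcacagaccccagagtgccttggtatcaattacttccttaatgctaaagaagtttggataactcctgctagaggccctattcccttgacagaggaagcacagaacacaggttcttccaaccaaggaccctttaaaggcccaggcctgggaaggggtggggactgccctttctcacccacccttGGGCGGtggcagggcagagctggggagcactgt
Col25a1: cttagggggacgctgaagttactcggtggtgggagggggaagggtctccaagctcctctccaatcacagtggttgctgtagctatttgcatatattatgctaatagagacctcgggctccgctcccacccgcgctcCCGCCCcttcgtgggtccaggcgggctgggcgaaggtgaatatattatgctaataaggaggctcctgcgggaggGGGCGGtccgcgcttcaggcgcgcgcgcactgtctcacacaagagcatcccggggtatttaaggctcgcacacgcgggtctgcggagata
Col4a1: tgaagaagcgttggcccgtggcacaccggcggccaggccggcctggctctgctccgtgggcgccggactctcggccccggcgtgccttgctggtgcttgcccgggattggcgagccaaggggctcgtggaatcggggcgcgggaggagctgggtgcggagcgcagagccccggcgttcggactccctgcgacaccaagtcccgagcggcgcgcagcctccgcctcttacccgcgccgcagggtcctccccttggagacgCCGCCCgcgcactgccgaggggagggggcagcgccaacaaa
Col4a2: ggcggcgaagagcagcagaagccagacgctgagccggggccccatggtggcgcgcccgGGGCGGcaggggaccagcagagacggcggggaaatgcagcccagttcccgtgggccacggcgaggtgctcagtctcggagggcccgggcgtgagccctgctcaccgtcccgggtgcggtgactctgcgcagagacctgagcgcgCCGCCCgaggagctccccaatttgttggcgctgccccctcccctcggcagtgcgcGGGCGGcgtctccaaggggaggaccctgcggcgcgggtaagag
Col4a1 and Col4a2 lie head to head on chromosome 8, and these windows share 78 bases, read in opposite directions. The GC box of the Col4a1 window and the last GC box of the Col4a2 window are the same site. The annotated genes overlap by 85 bases at their starts, Col4a1 at chr8:11198423-11312889 and Col4a2 at chr8:11312805-11449287. Lama2 covers chr10:26981285-27617191. Whether the counting used strand is not stated, so reads from a shared stretch cannot be assigned with certainty. This limit holds for other members that overlap annotated genes, among them Lama2, Col15a1, Col14a1, Col26a1, Col25a1, Col19a1, Col9a3 and Lamc1. Of the other basement membrane pairs, Col4a3 and Col4a4 overlap by 114 bases in the same arrangement on chromosome 1, and 1274 bases separate Col4a6 from Col4a5 on the X chromosome.

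To see which nuclei hold which chains, the level of each gene was taken in every cluster as CPM of the summed counts, given as mean ± SD over the 4 batches. CPM is not corrected for gene length, so each gene is compared only with itself across clusters. Because the clusters were made from expression, these levels are a description without a test. Of the 55 genes, 38 reached a pooled level of at least 50 CPM in at least 1 cluster. Fibroblasts, 132 nuclei, were the cluster with the highest level for 20 of the 38. The cluster Unknown_2 (57 nuclei) was highest for 6, and endothelium and ependyma for 3 each. Most of the genes led by fibroblasts, such as Col12a1 and Col3a1, and most of those led by Unknown_2 reached 50 CPM there alone. They are thus among the 38 only through the cluster in which they led. Fibroblasts held 253830 counts and Unknown_2 202553, so 50 CPM rests on few counts there. For some genes the batches overlapped the next cluster. The same count was not made over all genes.

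The summed collagens reached 5802 ± 668 CPM in fibroblasts, against 2605 ± 1416 CPM in Unknown_2, 2565 ± 497 CPM in Sst+ interneurons and at most 882.5 CPM in each of the other 15 clusters. Single genes made most of the sum in Sst+ interneurons (Col25a1, 2035 CPM) and in Unknown_2 (Col8a1, 821 CPM, and Col9a3, 697 CPM). The summed laminins reached 3505 ± 705 CPM in fibroblasts, 1071 ± 227 CPM in mural cells, 726.5 ± 43.1 CPM in astrocytes, 547 ± 209.5 CPM in endothelium and 470.1 ± 27.05 CPM in oligodendrocytes. All 4 fibroblast batches lay above every batch of the other clusters for both sums. Drd1+ neurons, the commonest type, had 404 ± 19.5 CPM of collagens and 123.5 ± 6.59 CPM of laminins, and Drd2+ neurons 280.2 ± 7.04 and 136.5 ± 5.62 CPM.

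Among fibrillar chains in fibroblasts, the 2 chains of type I collagen were at 259.8 ± 87.0 CPM (Col1a1) and 489.5 ± 97.4 CPM (Col1a2), and Col3a1, the type III chain found with them, at 299 ± 60.25 CPM. The next clusters were at 12.5 CPM for Col1a1 (astrocytes), 38.0 CPM for Col1a2 (mural cells) and 12.15 CPM for Col3a1 (mural cells), and no batch overlapped. Col5a2, a type V chain that joins type I fibrils, was at 157 ± 100.5 CPM, and its batches overlapped those of ependyma (pooled 48.4 CPM). Col12a1, a fibril-associated chain, was at 318 ± 107 CPM against 25.5 CPM in the next cluster.

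The basement membrane chains Col4a5 and Col4a6 were also highest in fibroblasts, at 623 ± 209.7 and 560.4 ± 160.1 CPM, with no overlap with the next cluster, Unknown_2 (148 and 34.6 CPM pooled). Lama1, the alpha chain of the first laminin described and a chain of the pial basement membrane, reached 1613 ± 319 CPM there against 98.0 CPM in Sst+ interneurons. Lama2 was at 956 ± 385 CPM in fibroblasts, and its batches overlapped those of astrocytes (pooled 616 CPM). It also stood at 419 CPM in mural cells and 385 CPM in oligodendrocytes, but Drd1+ neurons held 3.45 CPM and Drd2+ neurons 3.07 CPM. Lamc1, the gamma chain shared by most laminins, was the most widespread member, with at least 50 CPM in 12 clusters: 436 ± 141 CPM in fibroblasts, 331 CPM pooled in mural cells, 159 CPM in endothelium and 82.2 CPM in Drd1+ neurons. Col15a1 (170.1 ± 90.2 CPM) and Col18a1 (275 ± 134 CPM), the multiplexins of vascular basement membranes, were highest in fibroblasts as well; batches of Col15a1 overlapped those of macrophages (pooled 43.6 CPM), while those of Col18a1 were clear of the next cluster.

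**Figure D1:**
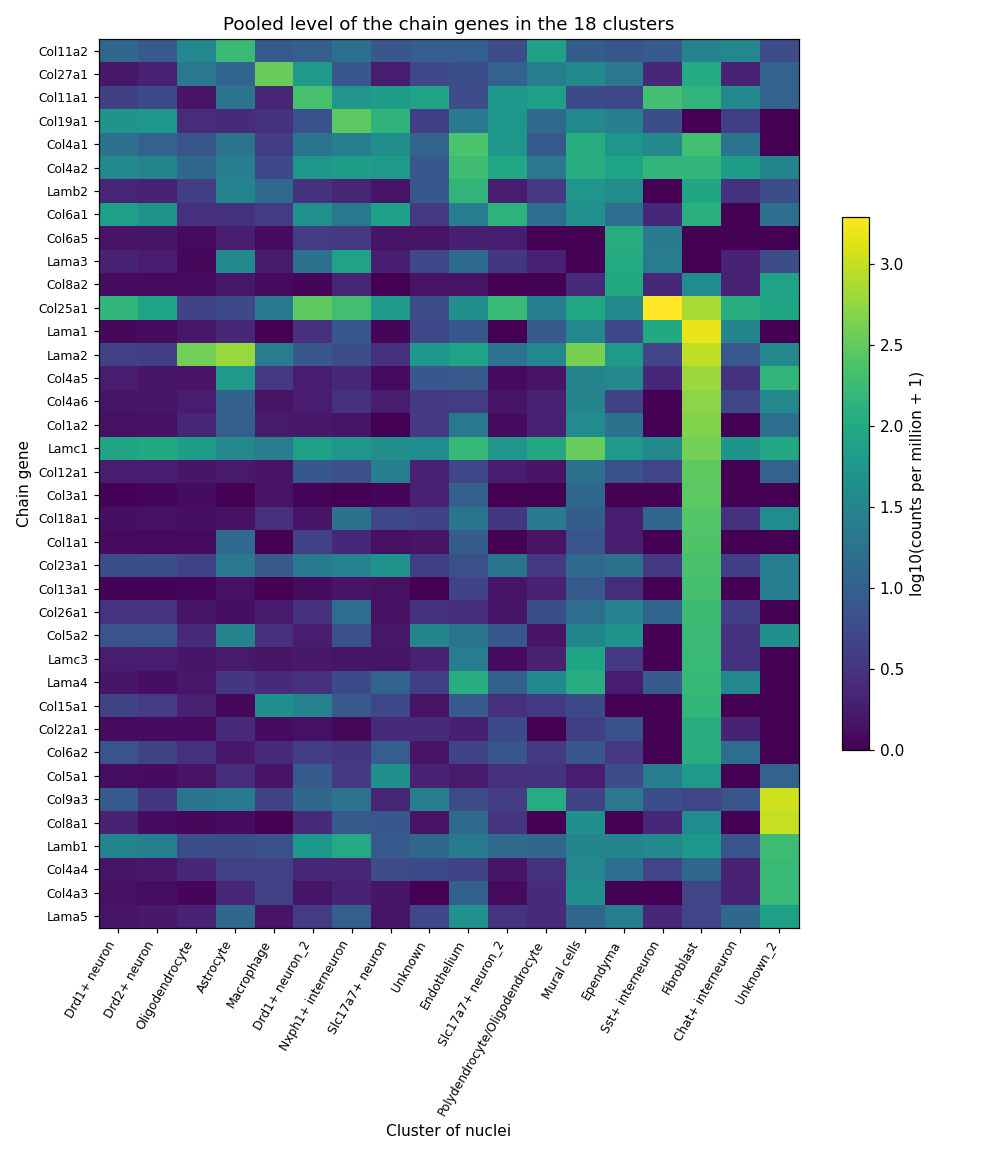
Pooled level of the 38 chain genes that reached 50 CPM (rows) in the 18 clusters (columns), as log10 of CPM plus 1 on the colour scale. The 20 genes highest in fibroblasts form the largest group, most of them at 50 CPM or more in that cluster alone. Lamc1, with at least 50 CPM in 12 clusters, is the most widespread row.

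Endothelium was highest for Col4a1 (203.5 ± 85.7 CPM), Col4a2 (168 ± 70.2 CPM) and Lamb2 (121 ± 66.1 CPM), a beta chain of vascular laminins. In each case fibroblasts were next and the batches overlapped. These SDs come largely from batch 3, whose endothelial nuclei held less of their own markers (above): Col4a1 was at 76.7 CPM there against 226 to 258 CPM in the other batches, Col4a2 at 74.5 against 155 to 234.5 CPM, and Lamb2 at 24.1 against 137 to 173 CPM. Without batch 3 the levels were 246 ± 17.35 CPM for Col4a1, 199 ± 40.1 CPM for Col4a2 and 153 ± 18.3 CPM for Lamb2 (n = 3 batches). Lama4, an alpha chain of vascular laminins, was highest in fibroblasts (179 ± 70.3 CPM), whose batches overlapped those of endothelium. In endothelium it was at 41.65 CPM in batch 3 and 104 to 145.5 CPM elsewhere. The cluster as a whole also held the 6 mural markers at 2960.0 CPM, of which Rgs5 made 1854 CPM, beside 5565 CPM of its own. Mural cells held projection neuron markers at 3366 CPM beside 4653 CPM of mural ones. The part of other cells' RNA in the chain levels of these clusters was not tested.

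Other clusters led for single chains. In ependyma, the ciliated lining of the ventricles, Col8a2 was at 115 ± 40.1 CPM, Col6a5 at 108 ± 32.4 CPM and Lama3, the alpha chain of epithelial laminin, at 97.6 ± 33.6 CPM. Only Col6a5 was clear of the next cluster: batches of Col8a2 overlapped those of Unknown_2 (pooled 79.0 CPM), and those of Lama3 overlapped Nxph1+ interneurons (pooled 78.7 CPM). Astrocytes were highest for the fibrillar chain Col11a2 (177 ± 16.3 CPM), with no overlap with the next cluster, Polydendrocyte/Oligodendrocyte (75.3 CPM pooled). Its partner chain Col11a1 was highest in the second Drd1+ cluster (218 ± 6.59 CPM), with overlapping Sst+ interneurons next at 201 CPM pooled. Macrophages were highest for the fibrillar chain Col27a1 (343 ± 17.0 CPM, against 106 CPM in fibroblasts).

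Neurons led for 2 further chains with no overlap with the next cluster. Col25a1, whose shed ectodomain binds the amyloid beta peptide and whose protein serves motor innervation, was at 2035 ± 367 CPM in Sst+ interneurons and 721 CPM pooled in fibroblasts, the next cluster. Drd1+ neurons held 152 CPM and Drd2+ neurons 79.8 CPM. Col19a1, a fibril-associated chain that acts in the formation of inhibitory synapses, was at 321 ± 114 CPM in Nxph1+ interneurons and 137 CPM in the first Slc17a7+ cluster. Col6a1, a type VI chain, was highest in the second Slc17a7+ cluster (129 ± 22.8 CPM), where its batches overlapped those of fibroblasts.

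The 57 nuclei of Unknown_2 led for Col8a1 (821 ± 548 CPM), Col9a3 (697 ± 716 CPM), Col4a4 (135 ± 94.7 CPM), Lamb1 (124 ± 120.2 CPM), Col4a3 (112.5 ± 110.5 CPM) and Lama5 (58.2 ± 53.4 CPM). For each of the 6 genes its batches overlapped those of the next cluster, and for Col9a3, Col4a3 and Lamb1 the SD was close to or above the mean. CAST/EiJ gave 33 of these nuclei and 129S1/SvImJ 13. CAST/EiJ carried 160 of the 228 Col9a3 counts, and 129S1/SvImJ 61. The levels of this cluster therefore describe mainly mice of those strains.

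The order of levels over the 18 clusters was not always alike for chains that assemble together. As a description over pooled levels, which share libraries and depth, Spearman's rho was 0.88 for Col4a1 with Col4a2, 0.75 for Col4a5 with Col4a6, 0.66 for Col1a1 with Col1a2 and 0.62 for Col6a1 with Col6a2. It was 0.31 for Col4a3 with Col4a4, 0.11 for Col11a1 with Col11a2 and 0.05 for Col6a1 with Col6a3. Col4a3 and Col4a4 each reached 50 CPM in 1 cluster and Col6a3 in 0, so their rho ranks mostly low levels. Both Col4a3 and Col4a4 were highest in Unknown_2 (163 and 168 CPM pooled) and next in mural cells (42.5 and 33.4 CPM). Lama2 followed the beta chain Lamb2 with 0.88 and the gamma chain Lamc1 with 0.25. The beta chain Lamb1 was not paired with Lama2 here. Lamb2 had 0.25 with Lama4 and 0.56 with Lama5.

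To ask how these genes vary with genetic background, counts were summed per mouse within a cluster and tested for a strain effect with edgeR's quasi-likelihood test, with batch as a term. Genes with a Benjamini-Hochberg adjusted p below 0.05, over all genes tested in the cluster, are named as called. Levels of single mice are CPM scaled by TMM, edgeR's library scaling. In all, 9 clusters had enough nuclei per mouse for the test, and 33 of the 55 genes passed the filter on low counts in at least 1 of them. Of these, 28 were called in at least 1 cluster, where 72.3% of all genes tested in at least 1 were, and Lama4, Lama5, Lamb2, Col1a1 and Col9a2 in none. The remaining 22, among them Lama1, Col1a2 and Col3a1, were too low in the 9 clusters to be tested. The filter asked for counts in about as many mice as 1 strain has, so a gene high in 1 strain alone could pass it. A call of such a gene is not independent of the filter. This limit holds for the counts of called genes below and for the shares over all genes, and such genes were not counted.

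The strain term called 20 of the 22 chain genes tested in Drd1+ neurons, where 61.7% of all genes tested were called, and 19 of 21 in Drd2+ neurons, against 55.9%. In oligodendrocytes it called 8 of 9 (34.8% of all genes), 10 of 14 astrocyte genes (21.5%), 3 of 3 macrophage genes (24.8%) and 6 of 9 of the second Drd1+ cluster (17.3%). Among the called genes are some that were high in few strains, such as Col15a1 and Col26a1 in Drd1+ neurons. Of the 3 macrophage genes only 1 passed the filter without CAST/EiJ. None was called in the remaining 3 clusters. In Nxph1+ interneurons 0 of 7 were called (1.53% of all genes) and 0 had an unadjusted p under 0.05, with 0 called by DESeq2 and 5 of 53 without the filter on low counts. In endothelium 0 of 9 were called (3.23%), with 4 at an unadjusted p under 0.05, 0 called by DESeq2 and 4 of 53 without the filter. In Polydendrocyte/Oligodendrocyte 0 of 1 was called (1.24%); that gene, Col9a3, had an unadjusted p of 0.00733 and was called by DESeq2.

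Lama2 had the largest strain F of all chain genes. In oligodendrocytes, the 4 CAST/EiJ mice had 4.985, 1.99, 0 and 3.53 CPM, from 6 counts in all. The 28 mice of the other strains had 274 to 700.4 CPM, with a median of 397 CPM. No CAST/EiJ mouse overlapped the others, and the group's mean of 2.63 ± 2.14 CPM (SD, n = 4) was near the 3.45 CPM of Drd1+ neurons. The strain term had F = 191 (adjusted p = 3.01e-50), and CAST/EiJ differed from the mean of the other 7 strains by -6.93 ± 0.21 log2 units (SE; adjusted p = 9.54e-51). This contrast called 2 of the 9 chain genes tested, Lama2 and Lamc1, where it called 17.0% of all genes in oligodendrocytes. All strains were counted against 1 reference genome, so a lower level of RNA and reads that were not assigned to the gene cannot be told apart.

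Among the other strains, 129S1/SvImJ oligodendrocytes held the most Lama2: 678, 599, 700.4 and 671 CPM, each above the highest of the other 28 mice (550.4 CPM). NZO/HlLtJ was at 518.5 ± 34.0 CPM, NOD/ShiLtJ at 474.5 ± 53.1, C57BL/6NJ at 413 ± 46.4, A/J at 311 ± 45.9, WSB/EiJ at 310.3 ± 33.15 and PWK/PhJ at 309 ± 19.3 CPM (SD, n = 4 each). The means of the last 3 lay within each other's SD. Since the mean of the other strains includes CAST/EiJ, strains in the middle of the order also came out above it; 129S1/SvImJ lay 1.77 ± 0.08 log2 units above (adjusted p = 1.82e-35).

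Astrocytes showed another order. CAST/EiJ was again lowest for Lama2, with 82.6, 60.9, 23.7 and 63.9 CPM (85 counts), below all of the other 28 mice (145 to 1088 CPM, median 765 CPM), and the difference was -3.22 ± 0.16 log2 units (adjusted p = 5.29e-32). PWK/PhJ (238 ± 73.9 CPM) and NOD/ShiLtJ (320.3 ± 32.9 CPM) were also low, with differences of -1.13 ± 0.13 (adjusted p = 1.97e-11) and -0.61 ± 0.12 (adjusted p = 0.000118). Of the other 5 strains NZO/HlLtJ had the lowest mean (674 CPM) and C57BL/6NJ the highest (1010.0 CPM). The strain term had F = 112 (adjusted p = 1.76e-39). The CAST/EiJ contrast in astrocytes called 8 of 14 chain genes, against 9.64% of all genes.

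Whether Lama2 varied by strain in the same way in both glial types was tested as an interaction of strain and cluster, with the mouse as a block, a test added after the means were seen. It had an adjusted p of 9.39e-31. The log2 ratio of astrocytes over oligodendrocytes within a mouse (1 CPM added) was 4.16 ± 0.40 in CAST/EiJ, 1.60 ± 0.14 in WSB/EiJ and 0.24 ± 0.22 in 129S1/SvImJ, but -0.57 ± 0.18 in NOD/ShiLtJ and -0.43 ± 0.40 in PWK/PhJ (SD, n = 4 each). Oligodendrocyte markers summed to 20680.0 to 23280.0 CPM by strain in oligodendrocytes and to 3816 to 4411 CPM in astrocytes, and CAST/EiJ stood at 21320.0 and 3912 CPM, within the range of the other strains in both.

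CAST/EiJ nuclei held Lama2 in other clusters. In mural cells, where too few mice could be tested, the summed level was 389 CPM (53 counts, exact Poisson 95% interval 291.5 to 509 CPM, covering counting error only), within the range of the other strains (334 to 563 CPM). In fibroblasts it was 461 CPM from 10 counts (221 to 847 CPM), and the other strains had 557 to 2003 CPM. In endothelium it was 37.8 CPM against 49.9 to 113 CPM, and the strain term did not call the gene (adjusted p = 0.647). In Drd1+ neurons, at 2.88 CPM, it lay among the other strains (2.44 to 4.19 CPM; adjusted p = 0.372).

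**Figure D2:**
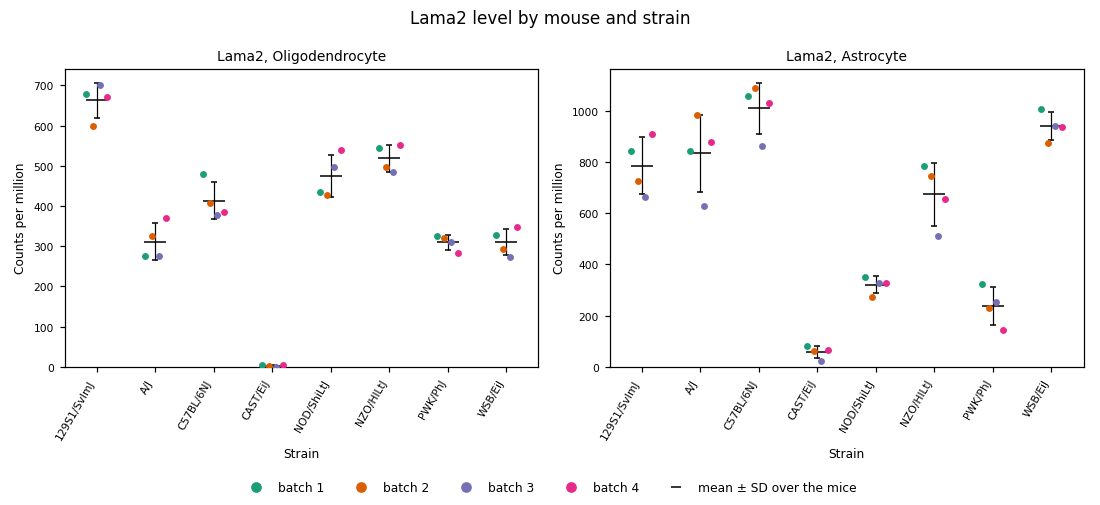
Lama2 in oligodendrocytes (left) and astrocytes (right), in TMM-scaled CPM, by strain; points are mice coloured by batch, and black marks are the mean ± SD of 4 mice. CAST/EiJ mice lie at 0 to 4.985 CPM in oligodendrocytes and at 23.7 to 82.6 CPM in astrocytes, below all other mice in both.

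Col4a1 and Col4a2, which share a start region and form the common type IV trimer, also differed by strain in oligodendrocytes. Col4a2 was at 35.8, 34.5, 36.1 and 33.3 CPM in WSB/EiJ, at 22.7, 29.7, 35.8 and 33.0 CPM in 129S1/SvImJ and at 15.8, 10.4, 39.5 and 25.4 CPM in NZO/HlLtJ. Means of the other 5 strains were 0.766 to 4.79 CPM, from 3 to 12 counts each. The strain term had F = 30.4 (adjusted p = 5.1e-20), and the 3 high strains lay 2.94 ± 0.29, 2.66 ± 0.29 and 2.24 ± 0.33 log2 units above the mean of the others (largest adjusted p = 1.44e-07).

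Col4a1 followed in the same strains, with 22.0 ± 6.09 CPM in WSB/EiJ, 15.2 ± 7.92 in NZO/HlLtJ and 9.53 ± 10.3 in 129S1/SvImJ, and means of 0.629 to 2.91 CPM in the other 5 (F = 13.6, adjusted p = 7.98e-11). In 129S1/SvImJ the 4 mice ranged from 0 to 23.9 CPM, so that group overlapped the low strains. In the same nuclei the 5 endothelial markers summed to 24.3, 25.8 and 21.65 CPM in WSB/EiJ, 129S1/SvImJ and NZO/HlLtJ, against 16.7 to 22.2 CPM in the other strains, with up to 5 of the 5 at 0 in a mouse. The 6 mural markers summed to 38.9 to 53.4 CPM over all strains. Their part in the levels of Col4a1 and Col4a2 was not tested.

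The pattern in astrocytes was another. There Col4a2 was highest in PWK/PhJ (45.7 ± 9.59 CPM, 1.08 ± 0.28 log2 units above the others, adjusted p = 0.00506) and lowest in CAST/EiJ (6.42 ± 5.66 CPM, 11 counts, a difference of -1.69 ± 0.41, adjusted p = 0.0019). Col4a1 was lowest in CAST/EiJ (4.56 ± 4.13 CPM, 7 counts) and highest in NZO/HlLtJ (31.9 ± 9.92 CPM). The strain term of Col4a2 in astrocytes was lost without CAST/EiJ, without PWK/PhJ, without batch 2 or without batch 4 (adjusted p 0.0566 to 0.202), and that of Col4a1 without CAST/EiJ (0.312). The interaction of strain with glial type had an adjusted p of 4.82e-15 for Col4a2 and 2.9e-05 for Col4a1; the latter was 0.0607 without batch 1. The sum of the 6 mural markers in astrocytes was also lowest in CAST/EiJ, at 192 CPM against 281 to 388 CPM in the other strains. Without TMM, Pdgfrb made most of it (146 CPM, against 174.5 to 244 CPM) and Vtn was also lowest there (21.55 against 25.9 to 49.0 CPM), while Rgs5, Notch3, Abcc9 and Kcnj8 were each lower in at least 1 other strain. The part of these markers in the differences of Col4a1, Col4a2 and Lama2 was not tested.

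**Figure D3:**
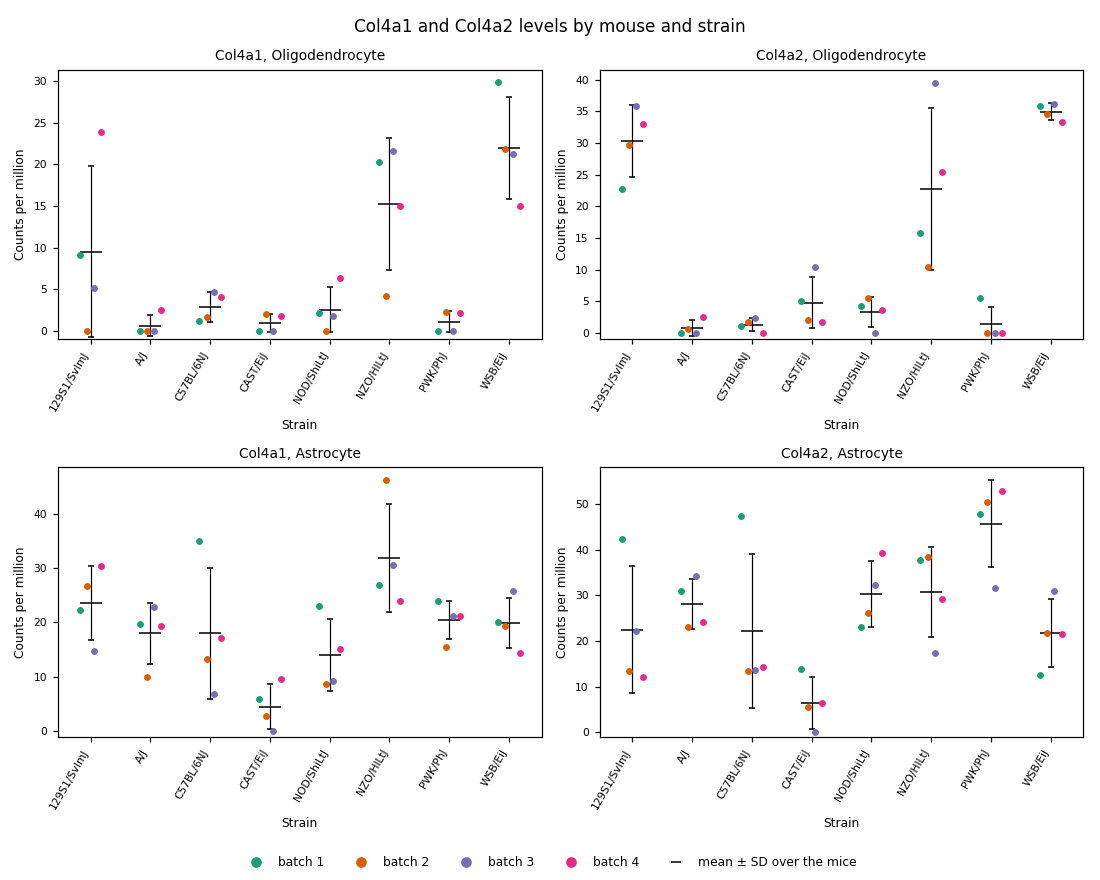
Col4a1 and Col4a2 in oligodendrocytes and astrocytes, in TMM-scaled CPM, by strain; points are mice coloured by batch, and black marks are the mean ± SD of 4 mice. In oligodendrocytes Col4a2 has means of 22.8 to 34.9 CPM in 129S1/SvImJ, NZO/HlLtJ and WSB/EiJ and at most 4.79 CPM in the other strains.

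Across oligodendrocytes and astrocytes, 6 of the 16 chain genes tested had a strain effect that differed between the types, where 10.9% of all genes did. Besides Lama2, Col4a1 and Col4a2 these were Col23a1 (adjusted p = 1.88e-05), Col16a1 (0.000144) and Col9a3 (0.0294), the last of which was lost without the filter on low counts or without batch 1, 2 or 4 (0.0866 to 0.359). Col23a1, a transmembrane collagen, was at 64.6, 56.4, 87.1 and 66.3 CPM in NZO/HlLtJ astrocytes, above all of the other 28 mice (0 to 47.3 CPM, median 13.3 CPM). It was 2.43 ± 0.27 log2 units above the mean of the other strains (adjusted p = 4.1e-11) and lowest in WSB/EiJ (3.11 ± 2.38 CPM, 4 counts).

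Lama3, the alpha chain of epithelial laminin, was high in C57BL/6NJ astrocytes. The 4 mice had 152, 73.4, 151 and 91.3 CPM (137 counts), and the other 28 had 0 to 82.7 CPM, with a median of 21.7 CPM. The C57BL/6NJ mouse of batch 2 overlapped the others. The difference was 2.47 ± 0.25 log2 units (adjusted p = 8.73e-11; strain term F = 17.9, adjusted p = 2.79e-10). The 3 markers of ependyma, the cluster in which Lama3 was highest, summed to 13.6 CPM in these astrocytes, within the 9.04 to 19.2 CPM of the other strains.

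The fibrillar chain Col11a2 was called in both glial types and both main neuron types. A/J was highest in oligodendrocytes (55.9 ± 13.9 CPM, 1.08 ± 0.16 log2 units above the others, adjusted p = 6.42e-08) and NOD/ShiLtJ next (47.8 ± 10.3 CPM). In astrocytes NOD/ShiLtJ was highest (262 ± 39.3 CPM), and PWK/PhJ was lowest (83.8 ± 19.0 CPM, a difference of -1.18 ± 0.18, adjusted p = 2.99e-07). The interaction for Col11a2 between the glial types was not called (adjusted p = 0.0731).

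Of the other chains called in oligodendrocytes, Lamc1 was highest in CAST/EiJ (110.5 ± 21.9 CPM, 0.74 ± 0.14 log2 units above the others, adjusted p = 1.16e-05), the strain with least Lama2. The strain term of Lamc1 there was lost without CAST/EiJ or without batch 1 (adjusted p 0.0739 to 0.0981). Col9a1 (adjusted p = 0.000244), Col27a1 (0.00107) and Col16a1 (0.0425) were also called. In astrocytes the called genes further included Col5a2 (9.19e-09), Col16a1 (4.05e-06), Col9a3 (0.00289) and Col4a5 (0.0448). Col9a3 was lost there without CAST/EiJ or without batch 1 (0.0531 to 0.104).

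Macrophages had 3 testable chains, and each was called by the strain term, though only 1 passed the filter without CAST/EiJ. Col27a1 was at 114, 77.6, 149.9 and 97.9 CPM in PWK/PhJ, below all of the other 28 mice (203 to 743 CPM, median 479.5 CPM), with a difference of -2.11 ± 0.20 log2 units (F = 21.3, adjusted p = 1.49e-15 for the strain term). CAST/EiJ was highest, at 668 ± 63.5 CPM. Col6a3, a type VI chain, was at 159 ± 59.95 CPM in CAST/EiJ (35 counts), where its mice overlapped 1 NZO/HlLtJ mouse at 197 CPM. It had 0 counts in WSB/EiJ, which allows up to 7.07 CPM (3 counts of 424439); the strain term had an adjusted p of 4.53e-07. Col15a1 was lowest in PWK/PhJ (17.6 ± 8.43 CPM) and highest in CAST/EiJ (109 ± 27.0 CPM) (adjusted p = 0.0269), a call lost without PWK/PhJ or without batch 1, 2 or 4 (0.184 to 0.387).

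Without CAST/EiJ only 1 chain could be tested in macrophages, and it was called. The other chains entered the test only with CAST/EiJ in the data, so their calls are not independent of the filter. Sums of markers of other cells also varied with strain in macrophages. The 5 endothelial markers summed to 406 CPM in CAST/EiJ (234 to 545 CPM by mouse) against 46.7 to 239 CPM in the other strains. The counts behind the CAST/EiJ sum were 84 of Pecam1, which myeloid cells also express, 6 of Cldn5, 1 of Flt1, 1 of Cdh5 and 0 of Mecom. The 5 astrocyte markers summed to 6032 CPM in 129S1/SvImJ against 828.9 to 1390.0 CPM elsewhere, from 2116 counts of Slc1a3, 264 of Slc1a2, 19 of Gja1, 12 of Aqp4 and 4 of Aldh1l1. The 5 fibroblast markers summed to 1.79 CPM in PWK/PhJ, 68.3 CPM in CAST/EiJ and 99.0 CPM in WSB/EiJ, against 4.84 to 41.8 CPM in the other strains. Bnc2 gave 0, 16 and 35 counts in PWK/PhJ, CAST/EiJ and WSB/EiJ, and Dcn and Lum together at most 1 in each of them. The part of these markers in the levels of Col27a1, Col6a3 and Col15a1 was not tested.

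Col27a1 was low in PWK/PhJ in the second Drd1+ cluster too. The 4 mice had 8.83, 0, 9.43 and 2.66 CPM (5 counts), below all of the other 28 (16.4 to 204 CPM, median 71.7 CPM), a difference of -3.67 ± 0.43 log2 units (F = 20.8, adjusted p = 2.31e-13 for the strain term). In oligodendrocytes, where Col27a1 was also called, PWK/PhJ stood among the other strains at 22.2 ± 6.46 CPM, and 129S1/SvImJ was lowest at 9.44 ± 3.36 CPM.

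Also in the second Drd1+ cluster, the fibrillar chain Col24a1 was highest in WSB/EiJ (99.2 ± 23.3 CPM) and NOD/ShiLtJ (87.5 ± 12.0 CPM) and lowest in CAST/EiJ (13.1 ± 13.9 CPM, 10 counts; adjusted p = 1.37e-06). Col25a1 was lowest in NOD/ShiLtJ, with 201.5, 198, 136.5 and 208 CPM against 247 to 525 CPM in the other 28 mice, and highest in CAST/EiJ (473 ± 58.3 CPM; adjusted p = 4.49e-06). Col11a1 (4.23e-05), Col15a1 (8.17e-05) and Col4a2 (0.0266) were called as well, and Col4a2 was lost with DESeq2, without CAST/EiJ or without batch 1, 3 or 4 (0.0542 to 0.27).

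In Drd1+ neurons the chain gene with the largest F was the multiplexin Col15a1. It was at 31.15, 21.04, 18.4 and 18.1 CPM in WSB/EiJ, and the other 28 mice had 0 to 3.69 CPM with a median of 1.14 CPM. The groups did not overlap, and WSB/EiJ lay 4.45 ± 0.21 log2 units above the others (adjusted p = 7.4e-22; strain term F = 67.4). The fibroblast marker Dcn was also high in these nuclei, in summed counts without TMM, at 46.55 CPM against 0.338 to 3.90 CPM in the other strains. Of the remaining fibroblast markers, Slc6a13 was at 0, Bnc2 at 0.168, Igf2 at 0.924 and Lum at 14.03 CPM in WSB/EiJ, against 0 to 10.4 CPM for Lum in the other strains. Over the list of 5, WSB/EiJ mice had 45.2 to 75.7 CPM and all other mice at most 17.05 CPM. Their part in the WSB/EiJ levels of Col15a1, and of Col23a1 and Col6a2 below, was not tested.

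Among fibrillar chains, Col5a2 was at 17.1, 23.8, 19.0 and 13.8 CPM in 129S1/SvImJ and at 0 to 10.6 CPM in the other 28 mice (median 2.86 CPM). A/J, CAST/EiJ and WSB/EiJ were also called above the mean of the others for Col5a2, by 2.12 ± 0.27, 1.98 ± 0.31 and 1.85 ± 0.30 log2 units. C57BL/6NJ, NOD/ShiLtJ and NZO/HlLtJ were called below it, from 3, 3 and 2 Col5a2 counts in all. Without batch 4 these calls were lost, though the differences stayed negative, at -2.23, -5.85 and -5.84 log2 units. The NOD/ShiLtJ and NZO/HlLtJ mice of the other batches had no Col5a2 counts. Col11a2 was at 20.8, 20.4, 31.0 and 21.7 CPM in A/J, above all of the other 28 (4.50 to 15.5 CPM), by 1.28 ± 0.11 log2 units (adjusted p = 1.36e-12). Col11a1, the other chain of type XI collagen, was highest in another strain. It was at 12.9, 12.8, 11.4 and 10.98 CPM in NOD/ShiLtJ, above the other 28 (0.559 to 9.08 CPM), by 2.42 ± 0.27 log2 units (adjusted p = 5.88e-09).

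Among fibril-associated chains, Col19a1 was at 2.11, 2.91, 11.9 and 4.085 CPM in CAST/EiJ Drd1+ neurons, below all of the other 28 mice (31.7 to 105 CPM, median 50.8 CPM). The difference was -3.62 ± 0.38 log2 units (adjusted p = 1.15e-07), and without CAST/EiJ the strain term was not called (0.196). Col9a3 was at 22.7, 13.5, 14.2 and 30.5 CPM in NOD/ShiLtJ, above the other 28 (3.68 to 12.4 CPM), by 1.67 ± 0.18 log2 units (adjusted p = 1.86e-09). The gene overlaps Tcfl5, so its reads are uncertain.

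Of the transmembrane collagens, Col25a1 was lowest in PWK/PhJ, at 80.2, 58.9, 70.3 and 69.2 CPM, below all of the other 28 mice (101 to 289 CPM, median 154.5 CPM). PWK/PhJ differed by -1.21 ± 0.13 log2 units (adjusted p = 4.55e-08), while CAST/EiJ (237 ± 13.1 CPM) was 0.81 ± 0.10 above the others (adjusted p = 1.11e-06). Col23a1 was at 22.95, 13.8, 19.6 and 11.1 CPM in WSB/EiJ, above the other 28 (0 to 9.73 CPM), by 2.27 ± 0.22 log2 units (adjusted p = 3.85e-10). NZO/HlLtJ, which had the most Col23a1 in astrocytes, had the least in Drd1+ neurons (1.28 ± 1.08 CPM, a difference of -1.94 ± 0.41, adjusted p = 0.000533).

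Among type VI and related chains, Col26a1 was high in both 129S1/SvImJ (9.73, 6.62, 7.125 and 8.07 CPM) and C57BL/6NJ (5.52, 7.18, 4.10 and 6.48 CPM), by 3.58 ± 0.29 and 3.06 ± 0.32 log2 units, and other strains had means of at most 0.831 CPM. Col6a2 was highest in WSB/EiJ (11.2 ± 2.66 CPM, 1.30 ± 0.18 log2 units above the others) and lowest in PWK/PhJ (1.42 ± 1.03 CPM, a difference of -2.05 ± 0.29, adjusted p = 2.17e-07). Col6a4 was highest in C57BL/6NJ, at 5.74, 10.4, 7.38 and 7.78 CPM, by 2.36 ± 0.26 log2 units (adjusted p = 2.48e-09). The other 28 mice had 0.341 to 6.23 CPM, so the groups overlapped.

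The laminin chain Lamb1 was called in 6 of the 8 strains. CAST/EiJ (43.15 ± 3.16 CPM), PWK/PhJ (39.0 ± 4.47 CPM) and NZO/HlLtJ (37.1 ± 2.85 CPM) lay above the others by 0.62 ± 0.09, 0.46 ± 0.09 and 0.37 ± 0.09 log2 units. WSB/EiJ (19.6 ± 1.29 CPM), 129S1/SvImJ (22.1 ± 2.17 CPM) and A/J (23.6 ± 2.845 CPM) differed by -0.66 ± 0.10, -0.47 ± 0.10 and -0.38 ± 0.09. The largest adjusted p among these 6 was 0.0015, and the strain term had F = 23.0 (1.74e-11). Without batch 2 the A/J contrast was not called.

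**Figure D4:**
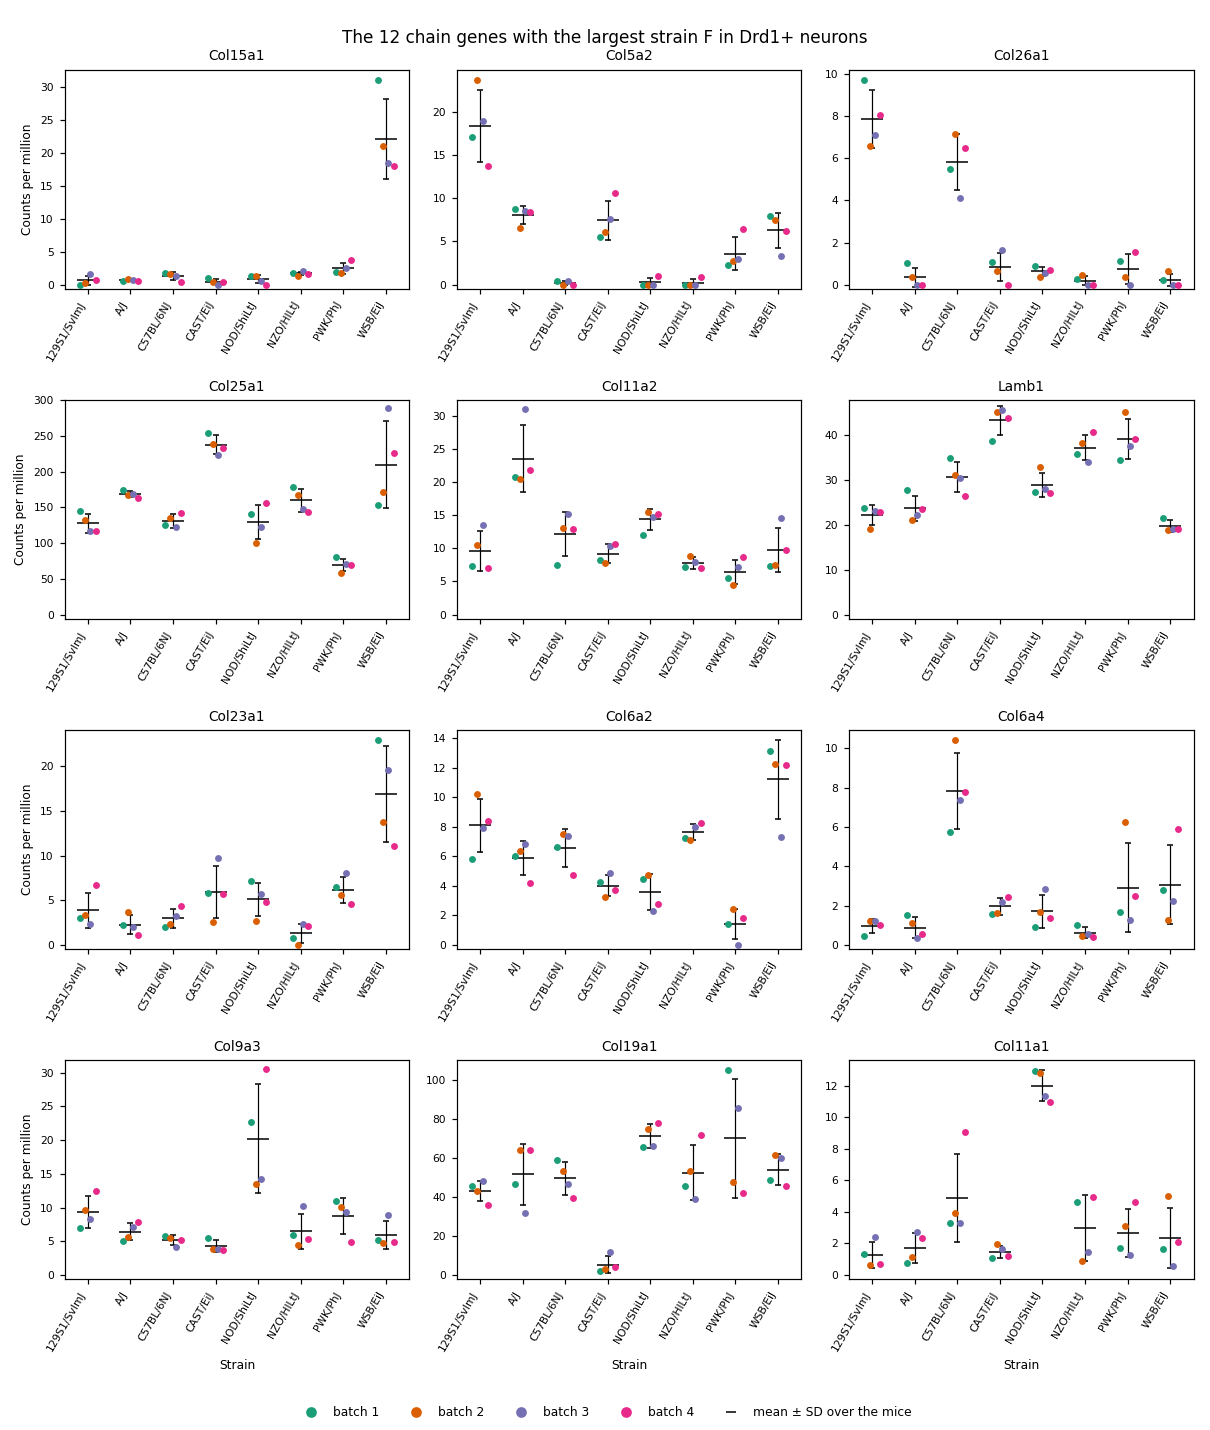
The 12 chain genes with the largest strain F in Drd1+ neurons, in TMM-scaled CPM (each panel has its own vertical scale), by strain; points are mice coloured by batch, and black marks are the mean ± SD of 4 mice. Col15a1, Col5a2, Col11a2, Col23a1, Col9a3 and Col11a1 each have 1 strain above all other mice, and Col25a1 and Col19a1 each have 1 strain below them. The panels were chosen by F, which favours strains that lie apart, and such genes were not counted over all genes.

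Further called genes in Drd1+ neurons were Col14a1 (F = 12.4, adjusted p = 1.01e-07), Col20a1 (0.000352), Col4a2 (0.000363), Col6a1 (0.000971), Col4a1 (0.00355), Lamb3 (0.0106) and Lamc1 (0.0446). Several of the weaker calls depended on single batches or strains. Lamc1 was lost without CAST/EiJ, without PWK/PhJ or without batch 1, 2 or 3 (0.0849 to 0.47). Lamb3 was lost without CAST/EiJ or batch 4 (0.156 to 0.246), Col4a1 without batch 4 (0.0506), Col4a2 without batch 2 (0.0639) and Col6a1 without batch 2 (0.0604). Col9a2 (adjusted p = 0.114) and Lama2 (0.372) were not called.

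By strain, in Drd1+ neurons the contrast of 1 strain with the other 7 called 10 of the 22 chain genes in CAST/EiJ (32.8% of all genes), 9 in PWK/PhJ (34.3%), 9 in NZO/HlLtJ (19.7%) and 8 in 129S1/SvImJ (12.3%). It called 6 in WSB/EiJ (17.0%), 8 in A/J (17.2%), 3 in C57BL/6NJ (13.9%) and 5 in NOD/ShiLtJ (15.9%). With each batch left out in turn these counts ranged from 4 to 6 in NZO/HlLtJ, from 4 to 10 in 129S1/SvImJ, from 5 to 8 in A/J, from 3 to 5 in NOD/ShiLtJ, from 6 to 13 in PWK/PhJ and from 6 to 9 in WSB/EiJ. In CAST/EiJ they were 7 to 9 and in C57BL/6NJ 2 to 3. The share of chain genes called was nearest to that of all genes in C57BL/6NJ (13.6%), PWK/PhJ (40.9%) and NOD/ShiLtJ (22.7%).

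In Drd2+ neurons 19 of the 21 chain genes tested also in Drd1+ neurons were called in both types, against 48.8% of all genes tested in both. The types come from the same mice and are no independent support. Col14a1, a fibril-associated chain, had the largest F here (31.9, adjusted p = 4.05e-14). PWK/PhJ had 13.35, 27.2, 17.5 and 10.5 CPM, above all of the other 28 mice (0 to 3.40 CPM, median 1.28 CPM), by 3.62 ± 0.24 log2 units (adjusted p = 6.37e-17). Lamb1 (F = 28.0, adjusted p = 3.75e-13) ranged from 14.4 ± 3.05 CPM in 129S1/SvImJ and 14.5 ± 3.92 in WSB/EiJ to 46.4 ± 7.57 in PWK/PhJ. Col5a2 was again highest in 129S1/SvImJ (20.6 ± 6.44 CPM; F = 26.1, adjusted p = 1.28e-09). Col25a1 in PWK/PhJ was at 17.2, 22.5, 24.75 and 34.0 CPM against 50.8 to 134 CPM in the other mice, and without PWK/PhJ the strain term was not called (0.204). Col4a2 was lost in Drd2+ neurons without CAST/EiJ or without batch 2 or 4 (0.0546 to 0.448). Col4a1 (0.359) and Lama2 (0.72) were not called.

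Of 15 chain genes tested in 3 or more clusters, 11 were called in 3 or more, against 30.0% of all genes tested in as many: Col4a2 in 5, Col11a2 and Col15a1 in 4, and Col4a1, Col5a2, Col9a3, Col11a1, Col23a1, Col25a1, Col27a1 and Lamc1 in 3. The highest strain for Col15a1 was WSB/EiJ in the 3 neuron clusters, with 22.2 ± 6.13, 10.9 ± 3.415 and 74.8 ± 14.7 CPM in Drd1+, Drd2+ and second Drd1+ neurons, and CAST/EiJ in macrophages. For Col5a2 it was 129S1/SvImJ in both main neuron types and NZO/HlLtJ in astrocytes (56.2 ± 24.4 CPM), where 129S1/SvImJ was at 11.9 ± 11.6 CPM.

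Whether the strain effect itself differed between Drd1+ and Drd2+ neurons was tested within mice. The interaction was called for 8 of 23 chain genes, against 4.58% of all genes, and for 4 without batch 1, without batch 3 or without batch 4. For Lamc1 (F = 10.7, adjusted p = 1.88e-08) the log2 ratio of Drd2+ over Drd1+ neurons, with 1 CPM added, ran from -0.003 ± 0.21 in NZO/HlLtJ and 0.03 ± 0.13 in A/J to 0.55 ± 0.15 in CAST/EiJ and 0.62 ± 0.12 in WSB/EiJ (SD, n = 4). All mice of the latter pair of strains lay above all mice of the former pair. For Col19a1 (adjusted p = 4.59e-05) it ran from -0.39 ± 0.15 in A/J to 0.38 ± 0.24 in C57BL/6NJ.

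Col14a1 (adjusted p = 4.92e-05) had a log2 ratio of 1.15 ± 0.40 in PWK/PhJ, and means of the other strains ran from -0.89 to -0.16. Col25a1 (0.000147) had ratios below 0 in every strain, nearest to 0 in NOD/ShiLtJ (-0.60 ± 0.22) and farthest in CAST/EiJ (-1.32 ± 0.14) and PWK/PhJ (-1.50 ± 0.49). Col6a1 (0.00131) did too, from -0.41 ± 0.24 in A/J to -1.07 ± 0.08 in 129S1/SvImJ. Lamb1 (0.0204), Col15a1 (0.0279) and Col11a1 (0.0497) were called too, and were lost in 5 or 6 of the alternatives, DESeq2 and batches left out among them (0.0986 to 0.555, 0.117 to 1.0 and 0.108 to 1.0). Col25a1 was lost without batch 3 and Col6a1 without batch 1 or 4 (at most 0.128 and 0.187). With no mouse as a block 1 chain gene was called, Col14a1.

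**Figure D5:**
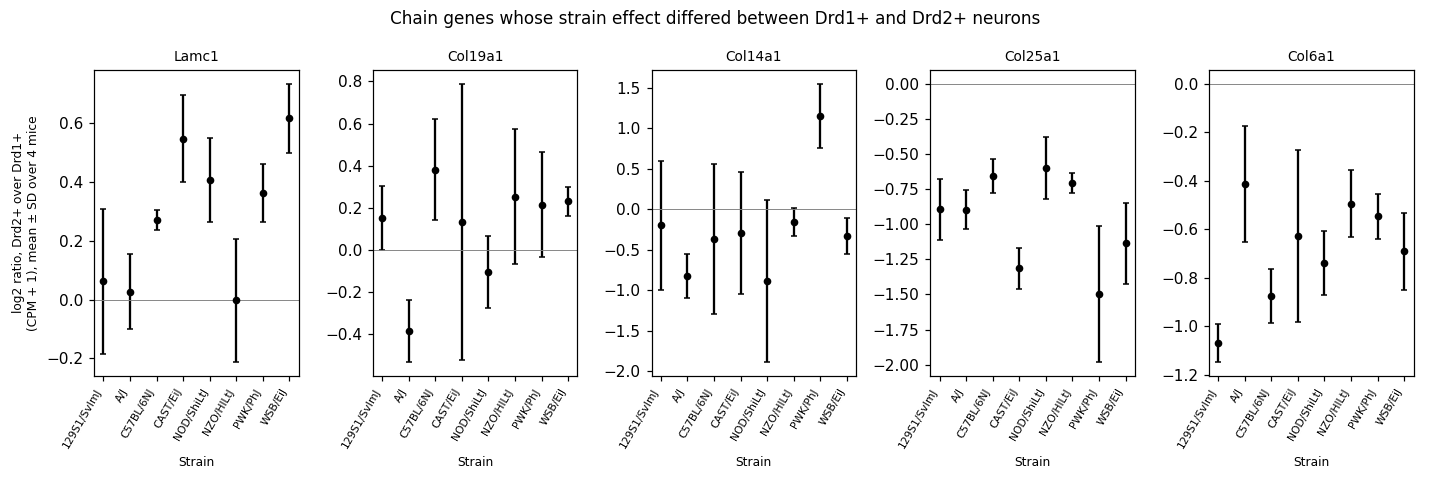
Log2 ratio of the level in Drd2+ over Drd1+ neurons (CPM plus 1) for 5 chain genes with a called interaction, by strain; points are means over 4 mice and bars the SD. In the Col14a1 panel PWK/PhJ, at 1.15, is the only mean above 0.

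Genes that make, bind or cut these chains were also read in Drd1+ neurons, from lists drawn up with the chain classes. Of 28 genes of collagen synthesis and processing, 15 were tested and 8 called, with Ppib, a proline isomerase of the collagen folding complex (lowest in PWK/PhJ at 46.7 ± 6.56 CPM, highest in NZO/HlLtJ at 92.1 ± 12.8 CPM), and Adamts2, which removes the amino propeptide of fibrillar collagens (lowest in NZO/HlLtJ at 8.41 ± 3.30 CPM, highest in A/J at 29.5 ± 5.35 CPM), at the largest F. Of 15 receptor genes 8 were tested and 5 called, led by the collagen-binding integrin chain Itga11 (lowest in NZO/HlLtJ at 3.45 ± 0.389 CPM, highest in PWK/PhJ at 14.2 ± 1.85 CPM) and the laminin-binding chain Itga6 (lowest in WSB/EiJ at 1.815 ± 0.344 CPM, highest in 129S1/SvImJ at 6.03 ± 1.83 CPM). Without batch 2 or without batch 4, 3 receptor genes were called. Of 15 matrix proteases and inhibitors 6 were tested and 6 called (3 without batch 3), led by the inhibitors Timp3 (lowest in PWK/PhJ at 27.9 ± 3.325 CPM, highest in CAST/EiJ at 64.7 ± 5.02 CPM) and Timp4 (lowest in CAST/EiJ at 11.2 ± 1.92 CPM, highest in NZO/HlLtJ at 21.2 ± 5.48 CPM). Of 13 partners in the basement membrane 2 were tested and 1 called, Sparc (lowest in 129S1/SvImJ at 26.0 ± 3.80 CPM, highest in PWK/PhJ at 37.0 ± 3.34 CPM), which was lost without the batch term or without batch 2; without batch 1, 4 of 4 partners tested were called. These shares stand against the 61.7% of all genes called in Drd1+ neurons.

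In endothelium, 9 chain genes were tested in 29 mice and none was called by the strain term. The smallest adjusted p-values were 0.0847 for Lama4, which in CAST/EiJ lay 0.90 ± 0.24 log2 units above the others (0.0352 in that contrast), and 0.175 for Col4a1. In Nxph1+ interneurons the smallest was 0.426, for Lamc1. These clusters held 851 and 1222 nuclei over all mice. Endothelium held 4211462 counts and Nxph1+ interneurons 5631337. The second Drd1+ cluster, with 6 of 9 chain genes called, held 1506 nuclei and 7245986 counts, and macrophages, with 3 of 3 called, 2638 nuclei and 3988683 counts. The part of nuclei and counts in the number of calls was not tested.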

How the data were processed

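The single-nucleus libraries hold RNA and open chromatin of the same nuclei. Reads were processed with bcl2fastq 2.20.0.422 and Cell Ranger ARC 2.0.0 against mm10, per the submitters' processing notes; the strand setting is not given in the sources used here. The deposited matrices hold raw counts of RNA molecules per gene and nucleus, per the file headers, and the authors' table of nuclei gives batch, strain and cluster as names (other values), used unchanged. The deposited peak list gives positions only (other values). All nuclei with a cluster are singlets by DoubletFinder and by Demuxlet in the authors' deposited table, and doublets were not called again.

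Counts were summed per mouse and cluster (at least 10 nuclei), and a cluster was tested where every strain had at least 3 mice. edgeR 4.0.16 in R 4.3.3 was used (TMM scaling, filterByExpr by strain, robust quasi-likelihood F test, Benjamini-Hochberg adjustment over all genes of a fit) with strain and batch as terms. Batch pairs the mice, because each pool held 1 mouse of every strain. Interactions had the mouse as a block. Replicates are separate mice. The functions were tested on simulated data. DESeq2 1.42.0, another scaling, at least 20 nuclei, no filter, no batch term and each batch left out were alternatives; fits without CAST/EiJ or PWK/PhJ and the test between glial types were added after the data were seen. Levels over clusters, ratios and intervals were computed in Python 3.11.15 with pandas 2.3.3 and scipy 1.17.1.

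The gene family and the lists were chosen with earlier results of these data known, and the family's members by symbol. Genes were named for clusters at a pooled level of at least 50 CPM, and for strains as those called in Drd1+ neurons (the 12 with the largest F in full; 1 of the called genes is not reported here), those called in 3 or more clusters, and the 3 called with the largest F in each other cluster. Of each list, the 2 called genes with the largest F were named. Intervals and floors cover counting error only. The sex of single mice was not used here.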

Additional observations from a re-analysis of the deposited data

Results flagged for a closer look

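Within 215 groups of 4 mice, 17 had 1 mouse far from the other 3, or 1.58 per 20 groups. Far means a gap of over 0.829 of the group's range, which normally distributed values give in about 1 in 20. Some of these groups hold low counts, and a group with counts in only 1 mouse always passes. The rates are therefore not comparable. In Drd1+ neurons, Col5a2 was at 1.03 CPM in the NOD/ShiLtJ mouse of batch 4 and at 0.826 CPM in the NZO/HlLtJ mouse of batch 4, with 0 in the other 3 mice of each strain, and at 6.46 CPM in the PWK/PhJ mouse of batch 4 against 2.24 to 2.95 CPM. Col11a2 was at 31.0 CPM in the A/J mouse of batch 3 against 20.4 to 21.7 CPM. Lamb1 was at 32.7 CPM in the NOD/ShiLtJ mouse of batch 2 (27.1 to 27.9 CPM in the others) and at 21.6 CPM in the WSB/EiJ mouse of batch 1 (18.8 to 19.1 CPM). Col6a2 was at 7.26 CPM in the WSB/EiJ mouse of batch 3 (12.2 to 13.1 CPM). Col9a3 was at 5.54 CPM in the CAST/EiJ mouse of batch 1 (3.68 to 3.88 CPM) and at 8.94 CPM in the WSB/EiJ mouse of batch 3 (4.71 to 5.15 CPM), and Col11a1 at 9.08 CPM in the C57BL/6NJ mouse of batch 4 (3.28 to 3.92 CPM).

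In the other clusters, Col5a2 was at 0.324 CPM in the NOD/ShiLtJ mouse of batch 4 in Drd2+ neurons, with 0 in the other 3. In oligodendrocytes, Col4a2 was at 5.54 CPM in the PWK/PhJ mouse of batch 1 (0 in the others), and Col11a2 at 19.9 CPM in the CAST/EiJ mouse of batch 1 (29.9 to 31.8 CPM). Col6a3 was at 197 CPM in the NZO/HlLtJ macrophages of batch 1 (0 to 32.8 CPM). In the second Drd1+ cluster, Col27a1 was at 172 CPM in the WSB/EiJ mouse of batch 3 (114 to 122 CPM), and Col25a1 at 136 CPM in the NOD/ShiLtJ mouse of batch 3 (198 to 208 CPM) and at 280.0 CPM in the NZO/HlLtJ mouse of batch 3 (336 to 347 CPM).

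The strain effect differed between Drd1+ and Drd2+ neurons, by edgeR's interaction test, for Lamc1 (adjusted p = 1.88e-08), Col19a1 (4.59e-05), Col14a1 (4.92e-05), Col25a1 (0.000147), Col6a1 (0.00131), Lamb1 (0.0204), Col15a1 (0.0279) and Col11a1 (0.0497). Between oligodendrocytes and astrocytes it differed for Lama2 (9.39e-31), Col4a2 (4.82e-15), Col23a1 (1.88e-05), Col4a1 (2.9e-05), Col16a1 (0.000144) and Col9a3 (0.0294).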

How the results depend on the processing

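No called strain contrast in Drd1+ neurons changed direction under the alternatives run. Directions in the other clusters and of the interactions were not compared. Without the filter on low counts more chain genes were tested, and the called number went from 6 to 11 in the second Drd1+ cluster, from 0 to 4 in endothelium, from 3 to 5 in macrophages, from 0 to 5 in Nxph1+ interneurons and from 0 to 2 in Polydendrocyte/Oligodendrocyte. In Drd1+ neurons it went from 8 to 15 in A/J, from 3 to 6 in C57BL/6NJ, from 9 to 18 in PWK/PhJ and from 6 to 10 in WSB/EiJ, from 1 to 4 basement membrane partners and from 5 to 8 receptors. With DESeq2, 5 of the 8 interactions between Drd1+ and Drd2+ neurons were called, and 1 gene in Polydendrocyte/Oligodendrocyte. With no replicate block, 1 interaction was called, that of Col14a1, and 0 partners; the cause was not tested. By strain term with no replicate block, Drd1+ neurons had 20 called chain genes, Drd2+ neurons 19, astrocytes 9 and oligodendrocytes 7. Without CAST/EiJ, 1 chain gene of 1 tested was called in macrophages. With 1 batch left out in turn, the called number was 7 to 9 in astrocytes, 6 to 8 in oligodendrocytes, 17 to 20 for Drd1+ neurons, 15 to 19 for Drd2+ neurons, 2 to 3 in macrophages, 5 to 6 in the second Drd1+ cluster and 0 in the other 3 tested. It was 4 to 7 for each interaction, 4 to 10 in 129S1/SvImJ, 5 to 8 in A/J, 2 to 3 in C57BL/6NJ, 7 to 9 in CAST/EiJ, 3 to 5 in NOD/ShiLtJ, 4 to 6 in NZO/HlLtJ, 6 to 13 in PWK/PhJ and 6 to 9 in WSB/EiJ. For the lists it was 0 to 4 partners, 3 to 5 receptors, 7 to 8 synthesis genes and 3 to 6 proteases and inhibitors. Of adjusted p-values of the strain term under an alternative, 555 kept their side of the threshold and 33 lost it; of those of the interactions 98 kept it and 28 lost it, and of the strain contrasts 459 and 63. At least 20 nuclei per mouse was not run in Polydendrocyte/Oligodendrocyte. Mural cells (390 nuclei), fibroblasts (132) and Unknown_2 (57) had too few nuclei per mouse for a strain test.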
